A study of Mus musculus with 38 samples.

Results

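The genes of the glutathione, peroxiredoxin and thioredoxin systems were measured in brown adipose tissue of mice on a low or a high fat diet. The members were chosen by gene name alone, as the names that begin with Gsta, Gstk, Gstm, Gsto, Gstp, Gstt, Gstz, Mgst, Gpx, Prdx or Txnrd followed by a digit, together with Txn1, Txn2, Sod1, Sod2, Sod3, Gclc, Gclm, Gss, Gsr, Nqo1 and Hmox1. No measured value entered the choice. The rule found 53 of the 29411 gene names on the array, and 51 of them were among the 21856 genes that were tested, having a signal well above background on no fewer than 6 of the 38 arrays. The other 2, Gpx6 and Gsta2, were well above background on 4 and 5 arrays and had no test.

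All animals were C57BL/6J mice, divided into groups after weaning at 3 to 4 weeks of age. LFC mice ate a low fat diet with 10% of the calories from fat, and HFC mice ate a high fat, high sucrose diet with 60% of the calories from fat. HF5, HF20 and HF75 mice ate the HFC diet with the ethno-botanical formulation Kal-1 at 5, 20 or 75 micrograms. LFC and HFC had 10 arrays each (days 6, 10 and 14, and weeks 0, 3, 6, 9, 12, 15 and 18), and each dose had 6 arrays (weeks 3 to 18). Every group had 30 animals and 5 were killed at a time, but each group had only 1 array per labelled time point, and the labels do not say whether animals were pooled for it. The time points of a group therefore serve as its replicates, and p values measure only the spread between these arrays. The 3 doses were all compared with the same 6 HFC arrays of weeks 3 to 18. Values are log2 signals minus the 75th percentile of the same array, and the level of one gene's probe is never set against that of another.

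Brown adipose tissue burns fat in its mitochondria to make heat, and its respiratory chain is a source of superoxide and hydrogen peroxide. Superoxide dismutases turn superoxide into hydrogen peroxide, which glutathione peroxidases and peroxiredoxins then reduce. Glutathione peroxidases are fed by glutathione, which Gclc, Gclm and Gss make and Gsr recycles, and peroxiredoxins are fed by thioredoxins, which the thioredoxin reductases recycle. Glutathione transferases join glutathione to reactive lipids and foreign compounds. Many of these genes, Nqo1 and Hmox1 among them, can be switched on by the factor NRF2, which binds the antioxidant response element together with a small MAF protein.

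RefSeq promoter windows of assembly GRCm38.p6 (250 bases before to 50 after a transcript start) were given for 44 of the 53 members. The core of the antioxidant response element, searched as TGACNNNGC on both strands, was in a window of 8 of these 44 genes (18.2%) and of 14% of all 27025 genes with a window. The AP-1 motif TGACTCA, on both strands, was in a window of 4 members (9.09%) and of 5.95% of all genes. The upstream 250 bases of 4 genes whose expression is described below are shown with the matches in capitals. They were chosen because Mgst1 holds the core and differed among the doses, Mgst2 holds AP-1 and differed most in mean between HFC and LFC, Prdx1 holds both motifs, overlapping in part, and Gclm holds the core in a gene of glutathione synthesis.
Mgst1 (chr6:138140277-138140526, plus strand): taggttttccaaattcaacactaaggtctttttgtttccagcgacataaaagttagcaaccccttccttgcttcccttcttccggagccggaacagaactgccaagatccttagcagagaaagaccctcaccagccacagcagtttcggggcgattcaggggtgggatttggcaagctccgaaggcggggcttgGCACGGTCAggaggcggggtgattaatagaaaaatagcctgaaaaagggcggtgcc
Mgst2 (chr3:51660929-51661178, plus strand): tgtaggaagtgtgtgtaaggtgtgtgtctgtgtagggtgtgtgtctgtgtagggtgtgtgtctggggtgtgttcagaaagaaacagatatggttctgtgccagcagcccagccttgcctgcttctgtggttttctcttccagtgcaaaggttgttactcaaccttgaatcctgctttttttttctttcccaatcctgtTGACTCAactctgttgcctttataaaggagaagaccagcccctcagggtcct
Prdx1 (chr4:116685349-116685598, plus strand): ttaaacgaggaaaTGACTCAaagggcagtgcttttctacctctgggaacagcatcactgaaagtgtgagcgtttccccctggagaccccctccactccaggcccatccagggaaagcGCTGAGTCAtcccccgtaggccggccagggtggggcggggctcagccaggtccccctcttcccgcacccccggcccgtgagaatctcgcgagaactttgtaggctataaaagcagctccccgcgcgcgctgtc
Gclm (chr3:122245307-122245556, plus strand): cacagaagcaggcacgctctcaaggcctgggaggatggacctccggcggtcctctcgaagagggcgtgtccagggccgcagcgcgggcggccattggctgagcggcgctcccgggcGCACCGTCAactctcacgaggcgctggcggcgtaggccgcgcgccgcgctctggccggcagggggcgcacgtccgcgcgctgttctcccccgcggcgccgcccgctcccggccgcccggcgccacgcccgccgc
Of the 8 members with the core, 1 (Mgst1) passed the test for differences among the doses described below, against 14 of 34 tested members with a window without it. A match is a description of these letters and not of a bound site.

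The arrays differed strongly in overall brightness, and the members moved with it. The 75th percentile of the signal lay between 35.1 units of intensity on the dimmest and 1209 on the brightest array, and a gap from 429.8 to 625.4 units separates 11 bright from 27 dim arrays. The bright arrays were 4 of 10 in LFC, 2 of 10 in HFC, 0 of 6 in HF5, 4 of 6 in HF20 and 1 of 6 in HF75, so brightness is unevenly spread over the groups. The summed level of the 6 erythroid markers on the array, of 8 listed, was 6.84 to 7.78 on bright and 8.21 to 11.89 on dim arrays, without overlap. Of these 6, Hbb-b1 was saturated on 33 and Hba-a1 on 29 of the 38 arrays. A saturated signal minus the array's 75th percentile is lower on a brighter array. The separation of the sums therefore cannot be read as a difference in blood content. Alas2 and Slc4a1, saturated on 0 arrays, also had lower means on bright arrays (-3.56 and -3.42). For 5 endothelial markers the sum was 4.20 to 6.97 on bright and 6.55 to 8.21 on dim arrays. That of 6 white adipocyte markers was 1.67 to 4.26 and 0.57 to 2.48, and that of 9 skeletal muscle markers -1.12 to 8.46 and 1.71 to 10.01. The summed levels of 8 macrophage markers (2.47 to 4.92 and 2.16 to 4.30) and 8 lymphocyte markers (-2.35 to 0.89 and -1.99 to 2.39) overlapped. The part of these cell types in the results was not tested. In bulk tissue, fewer cells of a type and less RNA per cell cannot be told apart. The 8 brown adipocyte markers were each well above background on most arrays, with one array standing apart. On the HF75 array of Week 3, Ucp1, which uncouples respiration, was at -3.07 (3.38 to 8.57 on the other 37) and Cidea, a lipid droplet protein of brown fat, at -1.78 (5.58 to 8.77 elsewhere). That array is labelled brown adipose like the rest, but both of these defining markers lay far below their level on every other array. Adipoq and Fabp4, which all adipocytes express, were within the range of the other arrays there (4.16, against 1.57 to 6.72, and 6.12, against 5.76 to 10.87). Fabp4, however, was saturated on all 38 arrays. The summed level of the 5 listed adipocyte markers was 6.94 on this array, below every other array (7.56 to 10.92). Adipoq and Cidec were saturated on 10 arrays each and Plin1 on 9. With Fabp4 saturated throughout, this sum, like the erythroid one, depends in part on brightness and cannot be read as adipocyte content. The summed white adipocyte markers were at 3.86 on this array, with 0.57 to 4.26 on the others. The counts among the doses and the differences of HF75 from HFC that this array decides are also given without it.

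Within the LFC group alone, where all mice ate one diet, the bright arrays lay above the dim arrays for most members. The 4 bright arrays were all above the 6 dim arrays for 26 of 51 members (51%), against 19.7% of all genes tested. They were all below for 4 members (7.84%), Gpx2, Gpx5, Gstt3 and Nqo1, against 20.9% of all genes, and Gpx5 was well above background on 1 of the 10 LFC arrays. Of the members, 39 had a higher mean on the bright LFC arrays, and the median difference was 1.37 on the log2 scale, against -0.28 over all genes. Among the 26 were mitochondrial enzymes (Prdx3, Prdx5, Txn2, Txnrd2, Sod2), cytosolic peroxiredoxins (Prdx1, Prdx2, Prdx6), peroxidases (Gpx3, Gpx4, Gpx8) and transferases (Mgst1, Mgst2, Mgst3, Gsto1, Gsto2, Gstz1, Gsta4), as well as Txn1 and Txnrd3 of the thioredoxin system. Why an array was bright was not tested.

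**Figure D1:**
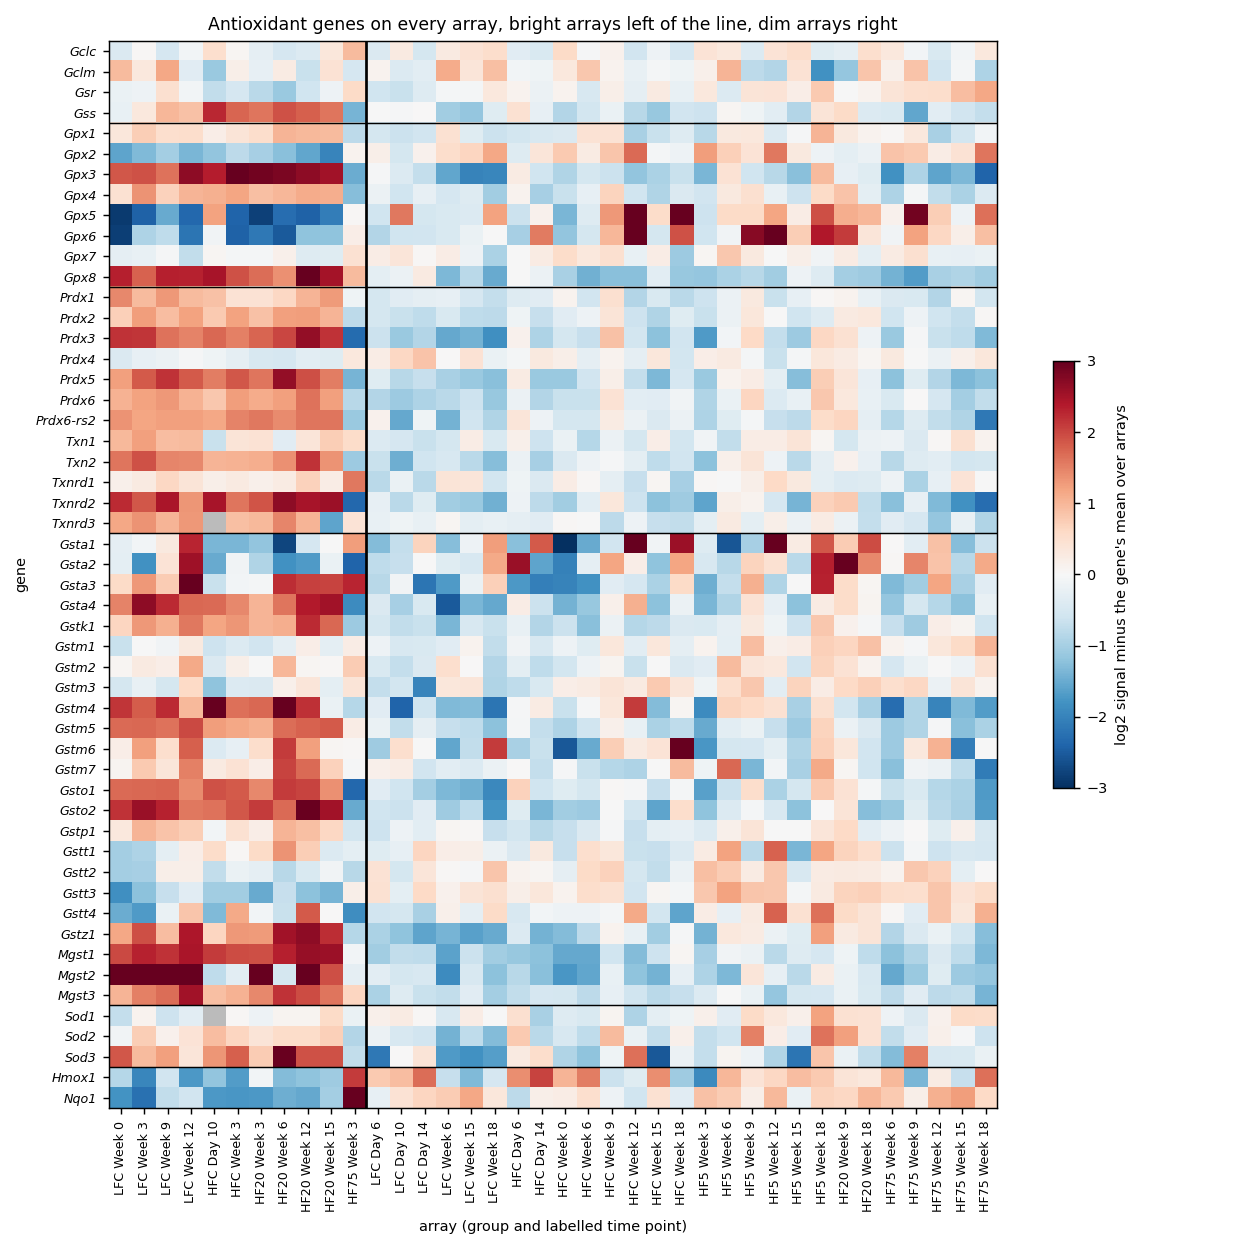
Log2 signal of 52 members (rows, in order of class) on each of the 38 arrays (columns), minus the gene's mean over arrays; red is above and blue below that mean, grey is a spot left out as an outlier. The 10 bright arrays of LFC, HFC and HF20 at the left are red for Gpx3, Prdx3, Txnrd2 and Mgst1, and the bright HF75 array of Week 3, just left of the line, is blue for them and red for Nqo1 and Hmox1.

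Among all 38 arrays the steadiest members were Prdx4, a peroxiredoxin of the endoplasmic reticulum (SD 0.34), Gpx7, a peroxidase of the same compartment (0.39), Gclc, the catalytic subunit of the first enzyme of glutathione synthesis (0.41), and Sod1 and Gstm1 (0.46 each). The signal was saturated on 9 of the 38 arrays for Sod1 and on 2 for Gstm1, which limits the reading of their spread. On bright arrays the mean was higher by 2.97 for Gpx3, the secreted peroxidase, by 2.95 for Gpx8, and by 2.86 and 2.82 for Mgst1 and Mgst2, both microsomal transferases. The Mgst1 signal was saturated on 4 of the 38 arrays. The mean was lower on bright arrays for Gpx5 (-2.55, on a probe well above background on 7 of the 38 arrays), Gpx2 (-1.66), Nqo1 (-1.45), Gstt3 (-1.39) and Hmox1 (-1.22). In all, 36 of 51 members (70.6%) had the higher mean on bright arrays, against 39.6% of all genes. Without the HF75 array of Week 3, the other 10 bright arrays were all above the 27 dim arrays for 13 members (25.5%, against 6.68% of all genes), Gpx3, Gpx8, Gstm5, Gsto1, Gsto2, Mgst1, Mgst3, Prdx2, Prdx3, Prdx5, Prdx6-rs2, Txn2 and Txnrd2. They were all below for 1 member, Gpx2 (1.96%, against 5.75% of all genes).

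The members differed among the 3 doses of Kal-1, and for most of them HF20 was the dose that stood apart. The moderated F test of limma called 20 of 51 members (39.2%) at an adjusted p under 0.05, against 13.4% of all genes. Of the 20, 17 were highest in HF20 (33.3% of members, against 6.89% of all genes) and 3 were lowest in HF20, namely Gsr, Gpx2 and Gstt3 (5.88%, against 6.5% of all genes). At an unadjusted p under 0.05 there were 33 members, with 37.4% of all genes. HF20 held 4 bright arrays and the other doses together 1. Once the brightness class of each array was a term of the model, 0 members passed the limma test and 17 had an unadjusted p under 0.05, with 11.4% of all genes. In that fit HF75 minus HF20 was 1.05 for Gsr (adjusted p over the doses = 0.224, limma). Without the HF75 array of Week 3, 0 members passed and 31 had an unadjusted p under 0.05, with 34.6% of all genes, of which 0 passed. At the 3 time points where the HF20 and the HF75 array were of one class, the members' median of HF20 minus HF75 was 0.51, and at the other 3 it was 1.70. Week 3, with the HF75 array that stood low in brown fat markers, was among the first 3. For HF20 minus HF5 the medians were -0.24 at 2 time points of one class and 1.26 at the other 4.

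The peroxiredoxin and thioredoxin system held the most calls, 8 of 13 members, all highest in HF20. Txnrd2, the mitochondrial thioredoxin reductase, had values of -2.27, -0.53, -0.58, -1.19, -2.10 and 0.00 in HF5 at weeks 3 to 18. In HF20 they were 1.19, 1.99, 0.10, 1.78, 1.87 and -1.43, and in HF75 -3.06, -1.94, -0.93, -2.01, -2.51 and -2.97. HF20 was above HF75 at 6 of 6 time points, but the HF20 array of Week 18, a dim one, lay within the range of HF75. HF75 minus HF20 was -3.15 ± 0.64 (SE, n = 6 time points), and limma's adjusted p over the doses was 0.0342.

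Prdx5, a peroxiredoxin of mitochondria, peroxisomes and cytosol, ran from 1.32 to 3.34 with a median of 2.50 in HF5, from 2.35 to 5.25 with a median of 4.17 in HF20, and from 1.21 to 2.23 with a median of 1.37 in HF75. All 6 HF20 arrays were above all 6 HF75 arrays, and the difference HF75 minus HF20 was -2.38 ± 0.59 (adjusted p = 0.0365, limma). Prdx6-rs2, a copy related to Prdx6, which reduces phospholipid peroxides, differed by -2.12 ± 0.44 (adjusted p = 0.0342). Further calls of this class were Prdx2, Prdx3, Prdx6 and the mitochondrial thioredoxin Txn2, with HF75 minus HF20 between -2.51 (Prdx3) and -1.29 (Prdx2). Prdx4, Txn1 and Txnrd1, the cytosolic thioredoxin reductase, did not pass.

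Among the peroxidases 3 of 7 passed. Gpx3 had values of 5.28, 5.21, 2.14, 5.06, 4.90 and 2.01 in HF20 at weeks 3 to 18, and 0.89, 0.55, 1.46, 0.80, 1.03 and -0.03 in HF75. In HF5 it was 1.01, 2.81, 1.78, 1.55, 1.12 and 3.32. The HF20 values fall into 4 high and 2 lower ones, and the 4 high ones are its bright arrays. HF75 minus HF20 was -3.32 ± 0.81 (adjusted p = 0.0356, limma). Gpx4, which reduces lipid peroxides in membranes, was also highest in HF20, and its signal was saturated on 9 of the 38 arrays. Gpx2, best known from the gut, went the other way: it was -4.36 to -2.55 in HF20 (median -3.50), -2.26 to -0.76 in HF75 (median -1.77) and -2.52 to -0.80 in HF5 (median -1.81). All HF20 arrays lay below all arrays of the other doses, and HF75 minus HF20 was 1.71 ± 0.47 (adjusted p = 0.0352).

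In glutathione synthesis and recycling, 2 of 4 members passed, in opposite directions. Gss, the second enzyme of synthesis, was highest in HF20, at 1.11, 1.41, 0.07, 1.29, 1.09 and -0.91 at weeks 3 to 18, against -1.91, -0.96, -2.06, -0.82, -1.07 and -1.22 in HF75. Of the 6 HF75 arrays, 5 lay below every HF20 array, and the dim HF20 array of Week 18 lay within the HF75 range. The difference HF75 minus HF20 was -2.02 ± 0.47 (adjusted p = 0.0342, limma). Gsr, which returns oxidised glutathione to its reduced form, had the smallest p of all members in this test. It was -0.26, -0.57, 0.53, -0.06, 0.38 and 0.65 in HF20, 0.85, 0.14, 0.93, 0.96, 0.74 and 1.32 in HF5, and 1.11, 0.93, 1.05, 1.06, 1.47 and 1.71 in HF75. All HF75 arrays were above all HF20 arrays, by 1.11 ± 0.19 on average (p = 2.11e-05, adjusted p = 0.0342), and HF5 lay between, above HF20 at 6 of 6 time points. Gclc and Gclm, the 2 subunits of glutamate-cysteine ligase, did not pass.

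Of 22 transferases 7 passed. Gsto1, Gsto2, Gstz1, Gsta4, Mgst1 and Mgst3 were highest in HF20, with HF75 minus HF20 between -2.48 (Gsto2) and -1.66 (Mgst3), and Gstt3 was lowest in HF20 (1.07). The largest adjusted p among the members called was 0.0491 (Prdx6). Just outside were Gpx5 at 0.0538 and Gstm4 at 0.0565. No superoxide dismutase (0 of 3) and neither inducible enzyme passed the limma test, with 1 dismutase and 1 inducible enzyme at an unadjusted p under 0.05.

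HF20 was higher than HFC for most members, with no single gene past the threshold. The difference was above 0 for 39 of 51 members with a median of 0.77, while the median over all genes was -0.20. Quantile normalization moved the median of all genes to 0.04, with 42 members higher and a members' median of 0.82, and normexp background correction moved it to -0.43, with 35 members higher and 0.50. In limma 0 of 51 members passed (0% of all genes), and 25 had an unadjusted p under 0.05 (49%, against 33.2% of all genes). Of the 25, 23 were higher (against 13.2% of all genes) and 2 were lower (against 19.9%). The methods' t-test, an unpaired test per gene, also called 0 after adjustment and had 19 at an unadjusted p under 0.05.

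By class, 12 of 13 genes of the peroxiredoxin and thioredoxin system were higher in HF20 (median 0.84), as were 18 of 22 transferases (0.79), 4 of 7 peroxidases (0.77) and 3 of 3 dismutases (0.63). Synthesis and recycling was split evenly (median -0.06), and Nqo1 and Hmox1 were at -0.38 and -0.35. Across the 51 members, the HF20 difference and the difference between bright and dim LFC arrays had a Pearson r of 0.854 and a Spearman rho of 0.861 (0.806 and 0.818 over all 21856 genes), given as a description, since genes share the arrays. At the 3 time points where the HF20 and the HFC array were of the same class (weeks 3, 9 and 18) the members' median was 0.10, and at the other 3 it was 1.42. When brightness class was added to the model the median was 0.18, and 1 member had an unadjusted p under 0.05, with 3.11% of all genes.

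**Figure D2:**
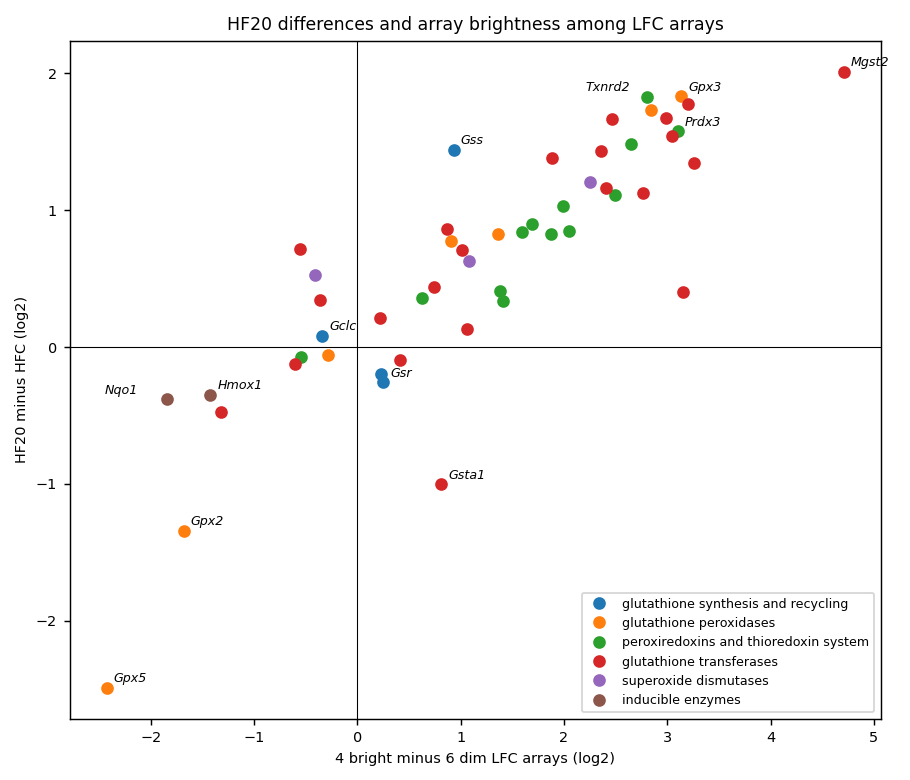
Each point is 1 of the 51 tested members, with the mean of the 4 bright minus the 6 dim LFC arrays on the x axis and HF20 minus HFC over 6 time points on the y axis, both in log2 units and coloured by class. The points run from Gpx5 at the lower left to Mgst2 at the upper right (r = 0.854), and the HF20 and LFC arrays are different samples.

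The smallest p values of HF20 against HFC belonged to Gpx5, Gss and Mgst3. Gpx5, a secreted peroxidase known from the epididymis, was well above background on 3 of 6 HFC and 0 of 6 HF20 arrays, which gives only a bound, at least 1.47-fold lower in HF20 (limma adjusted p = 0.118). Mgst3, a microsomal transferase and peroxidase, was 2.15, 2.88, 0.50, 2.66, 2.30 and 0.24 in HF20 at weeks 3 to 18 and 1.75, -0.09, 0.45, 0.10, -0.10 and 0.02 in HFC. HF20 was higher at 6 of 6 time points, by 1.43 ± 0.49 (2.70-fold, adjusted p = 0.118). The differences were widest at weeks 6, 12 and 15, which pair a bright HF20 array with a dim HFC array: the mean was 2.65 there and 0.22 at the other 3. For Gss it was 1.44 ± 0.47 (2.72-fold, adjusted p = 0.118), with means of 2.61 and 0.27.

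**Figure D3:**
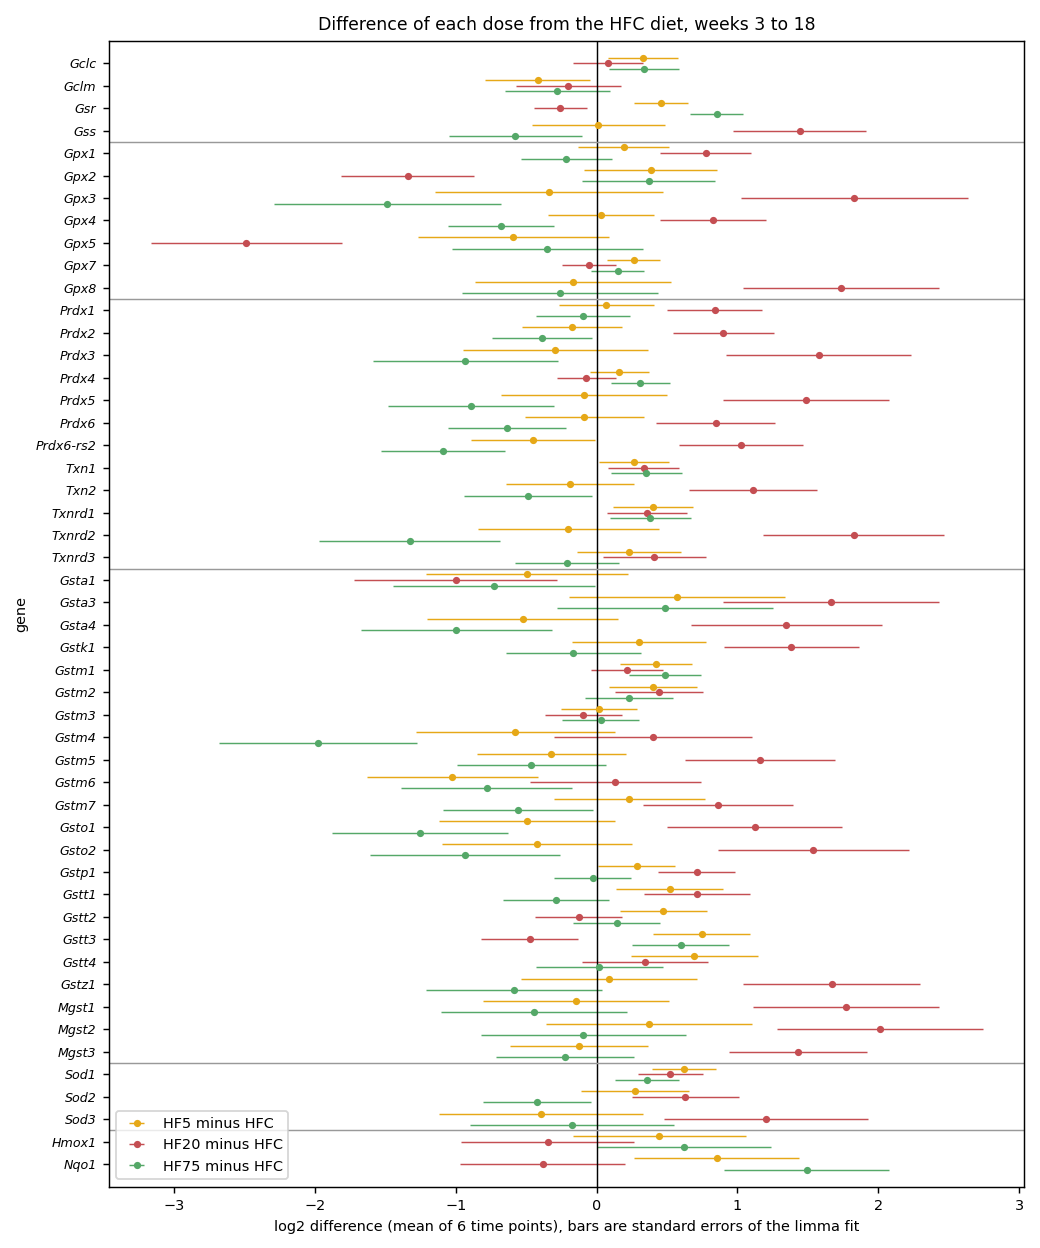
Log2 difference of HF5, HF20 and HF75 from HFC for 50 tested members (rows, by class), as the mean of 6 time points with the standard error of the limma fit. HF20 lies to the right for Gpx3, Prdx3, Txnrd2 and Mgst2 while HF75 lies to the left or near 0, and Gsr has HF75 farthest to the right (0.85); all 3 doses share the same HFC arrays.

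HF75, the highest dose, was compared with HFC at 6 time points at which both arrays were in one brightness class each time. Gsr was the member with the smallest p. Its HFC values at weeks 3 to 18 were 0.03, 0.06, 0.71, 0.27, 0.81 and 0.32, so all 6 HF75 arrays (0.93 to 1.71) lay above every HFC array, and also above the HFC arrays of the first 2 weeks (the highest HFC value was 0.81). The LFC values ran from -0.13 to 1.03 and overlapped with HF75. HF75 minus HFC was 0.85 ± 0.19 (1.81-fold, higher at 6 of 6 time points, p = 0.000151), but over all genes limma's adjusted p was 0.446. The array carries 3 probes for Gsr, which gave differences of 0.85, 0.80 and 0.93. Without the HF75 array of Week 3 the difference was 0.83 ± 0.20. When brightness class was added to the model it was 0.85 (adjusted p = 0.169, the lowest among the alternatives, whose highest was 1.0).

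The next members were Gstm4, a cytosolic transferase, and Nqo1, a quinone reductase. Gstm4 was -3.96, -5.38, -4.00, -5.07, -4.43 and -4.78 in HF75 and -1.44, -3.13, -2.77, -0.99, -4.39 and -3.04 in HFC. It was lower in HF75 at 6 of 6 time points, by -1.98 ± 0.70 (adjusted p = 0.538, limma), but was well above background on only 1 of the 6 HF75 arrays. Nqo1 was 1.43, -0.98, -1.60, -0.70, -0.51 and -1.17 in HF75 and -3.51, -1.27, -1.93, -2.36, -1.31 and -2.11 in HFC. It was higher in HF75 at 6 of 6 time points, by 1.49 ± 0.59 on average (2.81-fold, adjusted p = 0.538). The difference at Week 3 alone was 4.94. Without the HF75 array of Week 3, which stood low in the brown fat markers, the difference was 0.88 ± 0.50.

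No member passed in HF75 against HFC by limma (0 of 51, 0% of all genes) or after adjustment by the methods' t-test, and 4 had an unadjusted p under 0.05 (7.84%, against 9.15% of all genes), or 8 by the methods' t-test. The members' median was -0.26, with 17 higher and 34 lower, against -0.03 over all genes. Without the HF75 array of Week 3 the median was the same (-0.26), with 2 members at an unadjusted p under 0.05, beside 6.04% of all genes. When brightness class was added there were 12, with 16.5% of all genes. The peroxiredoxin and thioredoxin system had 10 of 13 lower (median -0.48) and the transferases 15 of 22 (-0.26). The lowest of the first class was Txnrd2 at -1.33 and the lowest peroxidase was Gpx3 at -1.49, each lower at 6 of 6 time points. Both were nearer to 0 once the HF75 array of Week 3 was left out. Over the other 5 time points the mean difference was -0.79 ± 0.27 (SD) for Txnrd2 and -0.82 ± 0.66 for Gpx3, lower at each. In the fit without that array it was -1.04 ± 0.67 (SE) and -1.23 ± 0.86. Hmox1, an inducible enzyme, differed by 0.62 ± 0.62 (SE), higher at 3 of 6 time points, and by -0.01 ± 1.80 (SD) over the other 5 (0.09 ± 0.58 in the fit).

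Of the 3 doses, HF5 had the members' median difference from HFC nearest to 0 in the main fit. No member passed in limma (0 of 51, 0% of all genes) or in the methods' t-test after adjustment, and 3 had an unadjusted p under 0.05 (5.88%, against 5.46% of all genes), or 2 by the methods' t-test. The members' median was 0.07 and that of all genes 0.01, and quantile normalization turned the sign of the members' median (-0.03). At the 5 time points where both arrays were dim the members' median was 0.39, with 44 of 51 higher in HF5, and at Week 3, where the HFC array was bright, it was -1.21. The 3 were Sod1, Gsr and Gstt3, all higher. Sod1, the cytosolic superoxide dismutase, was 6.77, 6.28, 7.19, 6.94, 6.77 and 7.84 in HF5 at weeks 3 to 18 and 6.67, 6.17, 6.70, 5.69, 6.34 and 6.50 in HFC. It was higher in HF5 at 6 of 6 time points, by 0.62 ± 0.23 (1.54-fold, adjusted p = 0.822, limma), and the groups overlapped. The Sod1 signal was saturated on 1 of these HFC arrays and on 0 of the HF5 arrays. Gsr was higher by 0.46 ± 0.19 and Gstt3, a theta class transferase, by 0.75 ± 0.35. Gpx5, Gstm6 and Sod3 were not well above background on any HF5 array.

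**Figure D4:**
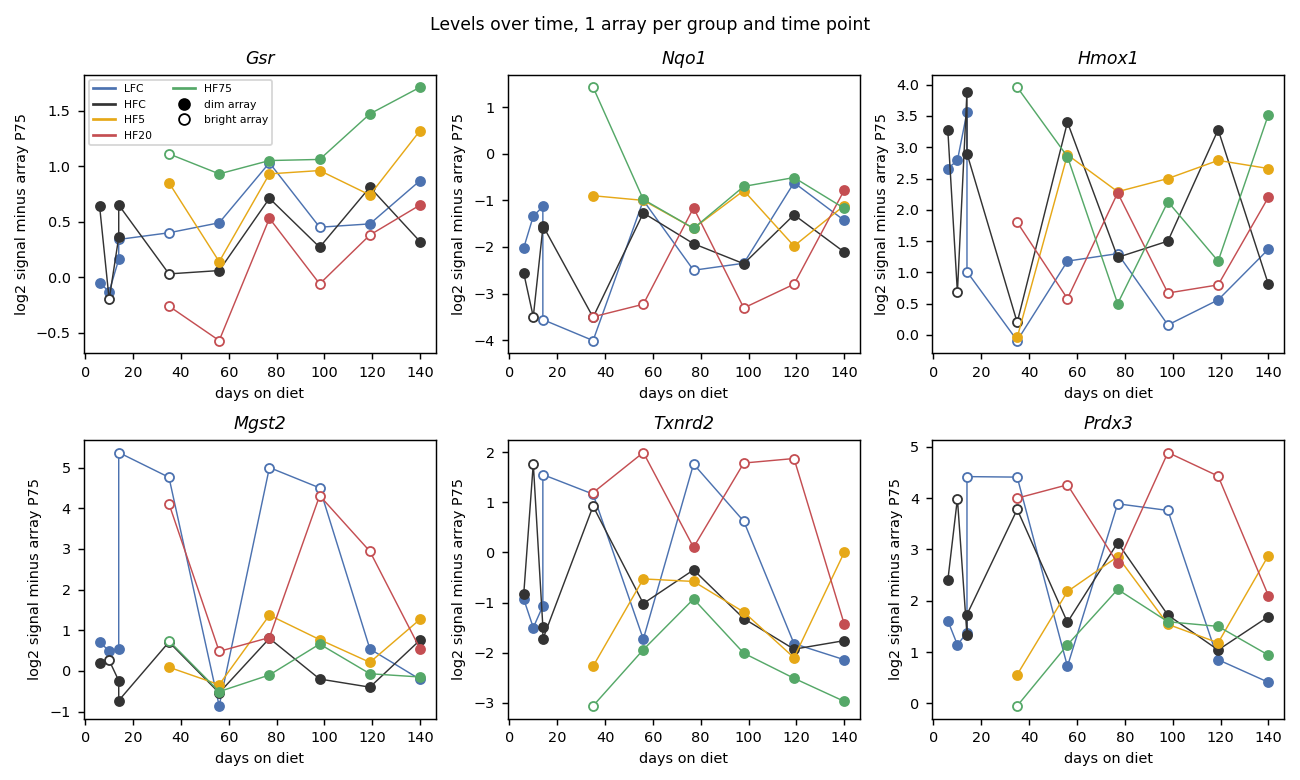
Log2 signal minus the array's 75th percentile (y axis) against days on the diet (x axis) for 6 members, 1 array per point, lines join the arrays of a group and open circles mark bright arrays. Gsr is highest in HF75 at all 6 time points of the doses, Nqo1 and Hmox1 peak on the HF75 array of day 35, Txnrd2 and Prdx3 are high where LFC and HF20 arrays are bright, and so is Mgst2 except in HF20 at Week 6 (0.48).

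The diet itself changed no member past the threshold. In HFC against LFC over 10 time points, 0 of 51 members passed in limma (0% of all genes) and after adjustment in the methods' t-test. At an unadjusted p under 0.05 there were 6 members (11.8%, against 7.07% of all genes), 1 higher and 5 lower in HFC, and 1 by the methods' t-test. The members' median was -0.10 and that of all genes 0.06, a difference whose sign for all genes turned with quantile normalization (-0.05). Over weeks 3 to 18 alone, 0 members passed (0.00915% of all genes) and 4 had an unadjusted p under 0.05 (7.84%, against 14.4% of all genes). In these weeks all 13 members of the peroxiredoxin and thioredoxin system were lower in HFC (median -0.51), where LFC had 3 bright arrays and HFC 1. When brightness class was added to the model, 5 of the 13 were lower and their median was 0.11. Over all 51 members the median in these weeks was -0.22, and 0.07 with the class added.

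The smallest p of the diet was that of Mgst2, a microsomal transferase that also makes leukotriene C4. It was -0.86 to 5.37 in LFC (median 0.62) and -0.73 to 0.80 in HFC. Its LFC values fell into 4 high ones, 5.37, 4.76, 5.00 and 4.50 at weeks 0, 3, 9 and 12, which are the 4 bright arrays, and 6 between -0.86 and 0.71. The bright HFC arrays of Day 10 and Week 3 did not share this level (0.26 and 0.71), nor did the bright arrays of HF20 at Week 6 (0.48) and of HF75 at Week 3 (0.74), while those of HF20 at weeks 3, 12 and 15 stood at 4.11, 4.31 and 2.94. HFC minus LFC was -2.02 ± 0.70 (lower at 8 of 10 time points, p = 0.014, adjusted p = 0.639, limma). Over the 6 time points whose 2 arrays were equally bright or dim the mean was -0.83, and at the other 4 it was -3.80.

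Txnrd3, a thioredoxin reductase with a glutaredoxin domain that is best known from testis, was -0.19 to 1.44 in LFC (median 0.05) and -0.69 to 1 in HFC (median -0.18). It was lower in HFC at 9 of 9 time points, by -0.66 ± 0.23 (adjusted p = 0.639), with the HFC array of Day 10 left out for an outlying spot. The mean was -0.26 over the 6 time points whose arrays shared a class, and the ranges overlapped. Gsta3, an alpha class transferase, was -3.33 to 3.20 in LFC (median -0.92) and -3.19 to -0.58 in HFC (median -1.96). It was lower in HFC at 9 of 10 time points, by -1.23 ± 0.44 (adjusted p = 0.639). Its mean difference was -0.53 over the 6 time points whose arrays shared a class and -2.27 at the other 4.

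In the other classes the member with the smallest p was as follows. Gclm, the regulatory subunit of glutamate-cysteine ligase, was lower in HFC at 8 of 10 time points, by -0.42 ± 0.18 (-2.61 to -1.06 in LFC, -3.33 to -1.41 in HFC). Sod2, the mitochondrial dismutase, differed by 0.40 ± 0.25 and Hmox1, which breaks down haem, by 0.67 ± 0.42, both within the spread between time points. Gpx5 was higher in HFC by 1.51 ± 0.60 on signals that were well above background on 1 of 10 LFC and 4 of 10 HFC arrays. In weeks 3 to 18 it was well above background on 0 of 6 LFC and 3 of 6 HFC arrays, at least 1.52-fold higher in HFC (adjusted p = 0.335). Txn1, the cytosolic thioredoxin, was lower in HFC at 6 of 6 of these weeks, by -0.64 ± 0.25 (adjusted p = 0.335). Its HFC values were 3.10 to 4.33 and its LFC values 3.41 to 5.18, with the 3 bright LFC arrays at 4.87 or more.

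Over the course of the experiment, no member followed the days on the diet past the threshold. The trend over days, common to both diets, called 0 of 51 members in limma (1.63% of all genes), with 6 at an unadjusted p under 0.05 (11.8%, against 21.3% of all genes). The members' median was -0.14 per 100 days, against 0.06 over all genes. The smallest p was that of Gstm6, a mu class transferase, at 1.70 ± 0.52 per 100 days (adjusted p = 0.0777). Its 2 highest values were the LFC and HFC arrays of Week 18 (-2.67 and -1.51), and it was well above background on 7 of 10 LFC and 4 of 10 HFC arrays. Gstm3 followed with 0.80 ± 0.29 and Gpx7 with -0.56 ± 0.20, whose lowest values were also those of Week 18 (-1.24 in LFC and -1.38 in HFC).

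The product of diet and day, which asks whether the diet difference changed over the course, called 0 of 51 members in limma (0% of all genes). At an unadjusted p under 0.05 there were 3 members (5.88%, against 15.3% of all genes). They were Gpx5 (2.61 per 100 days, on the dim signals described above), Txnrd1 (-0.87 ± 0.36) and Gclc (-0.87 ± 0.38). Gclc in HFC was 0.24 to 1.28 at days 6 to 14 and 0.13 to 0.83 from Week 3, and in LFC 0.17 to 0.98 and 0.19 to 1.22. The ranges of both diets overlapped in both periods.

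The wider redox pathway was read from 64 tested genes in 4 lists. In limma 0 of the 64 passed in any comparison with HFC or LFC. At an unadjusted p under 0.05 there were 25 in HF20 against HFC, with 33.2% of all genes, and 5 in HF75 against HFC, with 9.15%. In HF5 against HFC there were 5, with 5.46% of all genes. For the diet there were 7 over 10 time points, with 7.07% of all genes, and 5 in weeks 3 to 18, with 14.4%. Among the doses, limma called 11 of 64 (17.2%), against the 13.4% of all genes given above, and all 11 were highest in HF20. When brightness class was added to the model 0 of the 64 passed, with 11 at an unadjusted p under 0.05 (17.2%, against 11.4% of all genes). Leaving out the Week 3 array of HF75 also gave 0, with 28 at an unadjusted p under 0.05 (43.8%, against 34.6% of all genes). The 11 called were 4 of 21 genes of the NRF2 axis (Blvra, G6pdx, Me1 and Tkt), 6 of 17 of glutathione handling (Glrx, Glrx2, Glrx3, Glrx5, Hagh and Oplah), 1 of 15 thioredoxin partners and repair enzymes (Msra), and 0 of 11 oxidant sources, with 2 at an unadjusted p under 0.05. Glrx2, the mitochondrial glutaredoxin, differed by -2.25 ± 0.48 between HF75 and HF20, and Msra, which repairs oxidised methionine, by -2.15 ± 0.50 (adjusted p = 0.0342 each).

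In HF20 against HFC, the lists' medians were 0.41 for the NRF2 axis, 0.88 for glutathione handling, 0.41 for thioredoxin partners and -0.24 for oxidant sources, beside -0.20 over all genes. The smallest p values were those of Srxn1, which repairs overoxidised peroxiredoxins (0.97 ± 0.30), and Glrx2 (1.46 ± 0.48). In HF75 against HFC they were those of Tkt, an enzyme of the pentose phosphate pathway (-0.90 ± 0.31), and Sesn1, a sestrin (0.65 ± 0.22). In HF5 against HFC they belonged to Ggct (0.54 ± 0.21) and Ggt6 (-1.41 ± 0.55), both enzymes that break down glutathione or its products. For the diet they were Me1, which makes NADPH from malate, at -2.14 ± 0.45 in HFC minus LFC (p = 0.000477, adjusted p = 0.639, limma), and Sesn1 at -0.57 ± 0.17.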

How the data were processed

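Total RNA of brown adipose tissue was labelled with Cy3 for a custom 1-colour mouse array (38 arrays on 32 slides, scanned on 12 days). The deposited scanner files hold intensity values from Agilent Feature Extraction (version 10.5.1.1 in the file headers, 9.1 in the submitters' processing notes), already corrected for background by that software but not scaled between arrays. The processed signals of 4 arrays of Week 9 were stored with 3 significant digits. In the deposited table, values are log2 ratios to the LFC array of each time point, computed by the authors in GeneSpring. It served only as an alternative, because its Week 15 columns did not follow the probe names (correlation with the scanner files -0.0046 to 0.0022, against 0.994 to 1.00 elsewhere). The number of columns without a sample was 0.

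Processed signals were log2 transformed and reduced by the 75th percentile of their array. Control spots and spots flagged as outliers were left out, which removed the HFC array of Day 10 for Sod1 and Txnrd3. Each gene name was read from its probe of highest mean signal (14 members had more than 1 of the 70 probes). Genes had to be well above background on 6 or more arrays. Of the member names, 51 of 53 matched RefSeq symbols. The probes used for 2 members shared at most 75% of 36 aligned bases (Gstm5 and Gstm6).

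Fits used limma 3.58.1 in R 4.3.3 (package data.table, version 1.17.8) and were two-sided. P values were adjusted by Benjamini and Hochberg's method over all 21856 genes, with a threshold of 0.05. The time point was a block except in the trend over days, which has the diet in the model. The pairing comes from the study's own use of the LFC array of each time point as its control. The 20 LFC and HFC arrays entered the diet comparison, the trend and the product of diet and day. The other comparisons used the 30 arrays of weeks 3 to 18. Weeks were counted as 7 days from day 14 of the diet. The number of arrays limits the precision. On simulated data with 200 genes shifted by 1.5 on the log2 scale, 56.5% were recovered in HFC against LFC (7 unchanged genes called), 39% in HF75 against HFC (7) and 38.5% among the doses (5), all with the right sign. Each gene's simulated spread was capped at the median over all genes, and no difference in brightness was simulated. For genes with a wider spread, recovery in the real data can be lower.

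The members, the lists, the brightness boundary of 600 intensity units and the tests were chosen with earlier results of these data known. Named were all members past the threshold (at most the 8 with the smallest p, otherwise the 3 with the smallest p), the member with the smallest p for the diet in each class, and the 2 list genes with the smallest p. One member enters all counts, but its own values are not reported here. Some other members are named as examples chosen after their values were seen. Alternatives were quantile normalization, normexp (offset 50), the deposited table, other filters and probes, signals raised to background, slide or scan day as a block, array weights, brightness class, no block, the methods' unpaired t-test, Day 14 joined with Week 0, all arrays in one fit, and each time point or the HF75 array of Week 3 left out. The deposited table without Week 15 and the fits on time points of one brightness class were added after seeing the data.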

Additional observations from a re-analysis of the deposited data

Results flagged for a closer look

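In 125 sets of one gene in one group (25 named members, 5 groups), 5 held an array far from the others by Dixon's test. Chance gives about 1 in 20 sets. Txnrd3 was at 1 on the HFC array of Week 3, a bright array, with the nearest HFC array at 0.13. Gclm was at -3.33 on the bright HFC array of Day 10, with the nearest at -2.43. Hmox1 was at -0.04 on the dim HF5 array of Week 3, with the nearest at 2.29. Nqo1 was at 1.43 on the HF75 array of Week 3, the one with low brown fat markers, with the nearest at -0.51. Gpx7 was at -1.38 on the dim HFC array of Week 18, with the nearest at -0.53.

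For each of 7 named members, limma's F test over the 3 doses passed. That test does not show that every dose differed from every other. HF75 minus HF20 was 1.71 for Gpx2, -3.32 for Gpx3, 1.11 for Gsr, -2.02 for Gss, -2.38 for Prdx5, -2.12 for Prdx6-rs2 and -3.15 for Txnrd2. In limma with the brightness class of each array as a term, none of them passed, and the differences were 0.82 for Gpx2, -1.62 for Gpx3, 1.05 for Gsr, -1.19 for Gss, -1.15 for Prdx5, -1.32 for Prdx6-rs2 and -1.89 for Txnrd2 (adjusted p over the doses 0.224 to 0.548).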

How the results depend on the processing

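The count of 20 members that differed among the doses was 0 with normexp background correction, without a filter on dim probes, with the brightness class in the model, without the HF75 array of Week 3, and in the deposited table with or without Week 15. With normexp, with the brightness class, and without that array, 0 of all genes were called too. It was 9 with no block for the time point and 31 with array weights, which called 9276 of all genes. Leaving out 1 time point gave 0 (Weeks 3, 6, 12 or 15) to 28 (Week 18). In HF20 against HFC, with 0 members in the main analysis, array weights called 31 (8314 of all genes), and leaving out 1 time point gave 0 to 12, the 12 without Week 3. For the trend over days the count of 0 became 1 with signals raised to background, 3 with all 38 arrays in one fit, and 4 with the brightness class (Gpx7, Gsta3, Gstm6 and Hmox1, beside 1734 of all genes). The cause of these shifts was not tested. Where no count of all genes stands beside a setting, a change in the members cannot be told apart from a change over all genes. Leaving out a time point gave 0 members each time in the other 5 comparisons and in the trend. Of 760 alternatives of 33 named results, 669 kept direction and side of the threshold, 81 lost a call, 9 gained one, and 1 reversed, the trend of Gpx7, at 0.42 per 100 days with the scan day as a block. Quantile normalization moved the median of all genes by -0.19 to 0.24 over the comparisons, and normexp by -0.23 to 0.37. Signal over background limits Gpx5, Gstm4 and Gstm6, and saturation limits Sod1, Sod2, Gpx4, Gpx1, Mgst1 and Prdx2 (9, 10, 9, 4, 4 and 3 arrays). With 6 arrays per dose, changes of 1.5 were often missed in the simulated data.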
